A study of Mus musculus with 3 samples.

Results

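Cyclins, cyclin-dependent kinases (CDKs) and the regulators of mitosis are described here in the bone marrow of vehicle-treated mice. The members were the 41 genes of a list of cell cycle regulators, matched by symbol, and the matching used no measured value. The members and the other gene lists were, however, chosen with earlier results of these data known. All 41 were among the 23282 entries of the expression files, and they fall into 11 roles. Wild type C57BL/6 males aged 6 weeks, of a common inbred laboratory strain, received sterile water by gavage for 28 days, and on day 29 their marrow was collected and depleted of red blood cells by lysis. The series sets this vehicle against Asari Radix et Rhizoma, a herbal medicine, but treated samples were not analysed here, so 3 libraries of 1 group are compared with each other. The labels do not state that they came from separate mice, and the p-values therefore measure only a spread between samples that may be technical.

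Cyclins are proteins that bind and activate CDKs, and their rise and destruction move a cell from each phase of the cycle into the next. D-type cyclins with Cdk4 or Cdk6 phosphorylate the retinoblastoma family of pocket proteins, which releases E2F factors to switch on genes of DNA synthesis. Cyclin E and A with Cdk2 then drive S phase, and cyclin A and B with Cdk1 drive mitosis, which Polo-like and Aurora kinases organise and the spindle checkpoint holds until chromosomes are attached. In marrow this machinery runs in the progenitors of red cells, granulocytes and B cells, whereas mature neutrophils and resting stem cells do not divide.

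RNA was read with QuantSeq, a method that sequences about 1 fragment per transcript close to its poly(A) tail, so levels are given as reads per 1000000 gene-assigned reads (CPM) without division by gene length. The libraries held 9168435, 8104828 and 9137125 such reads in replicates 1, 2 and 3. An expected count of 3 reads, the approximate one-sided 95% upper limit behind a count of 0, corresponded to 0.327, 0.370 and 0.328 CPM. Ribosomal precursor Rn45s took 18.6% to 20.3% of reads and globin genes 10.1% to 15.1%, the lower globin share being that of replicate 1. The median gene of replicate 1 stood 0.15 (log2) above the other libraries on library totals, and 0.01 above them after trimmed-mean (TMM) scaling. For that reason most comparisons are given on both scales, while leave-outs of single genes are given mostly on totals. A gene was said to differ between libraries when an exact two-sided binomial test of the recovered reads, with Benjamini-Hochberg adjustment over 11833 genes of at least 30 reads, gave an adjusted p under 0.05. That test measures the libraries against counting noise only, and it finds smaller differences in genes with more reads.

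The members were mostly well expressed and spanned a wide range of levels. Their median was 52.3 CPM, against 8.06 CPM for all entries with reads. By mean CPM, Mki67 and Top2a stood over 900 CPM and held 40.5% of all member reads, 13 members reached at least 100 CPM, 23 lay from 20 to under 100 CPM, and 5 were below 20 CPM. In the order of levels, 33 of 40 pairs of neighbours had overlapping ranges over the libraries and were not set apart. The 7 steps with separate ranges were Mki67 over Top2a, Top2a over Ccnd3, E2f2 over Birc5, Ccne2 over Plk1, Ccnb1 over Rb1, Rb1 over Cdk4 and Cdk6 over Cdkn2a.

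**Figure D1:**
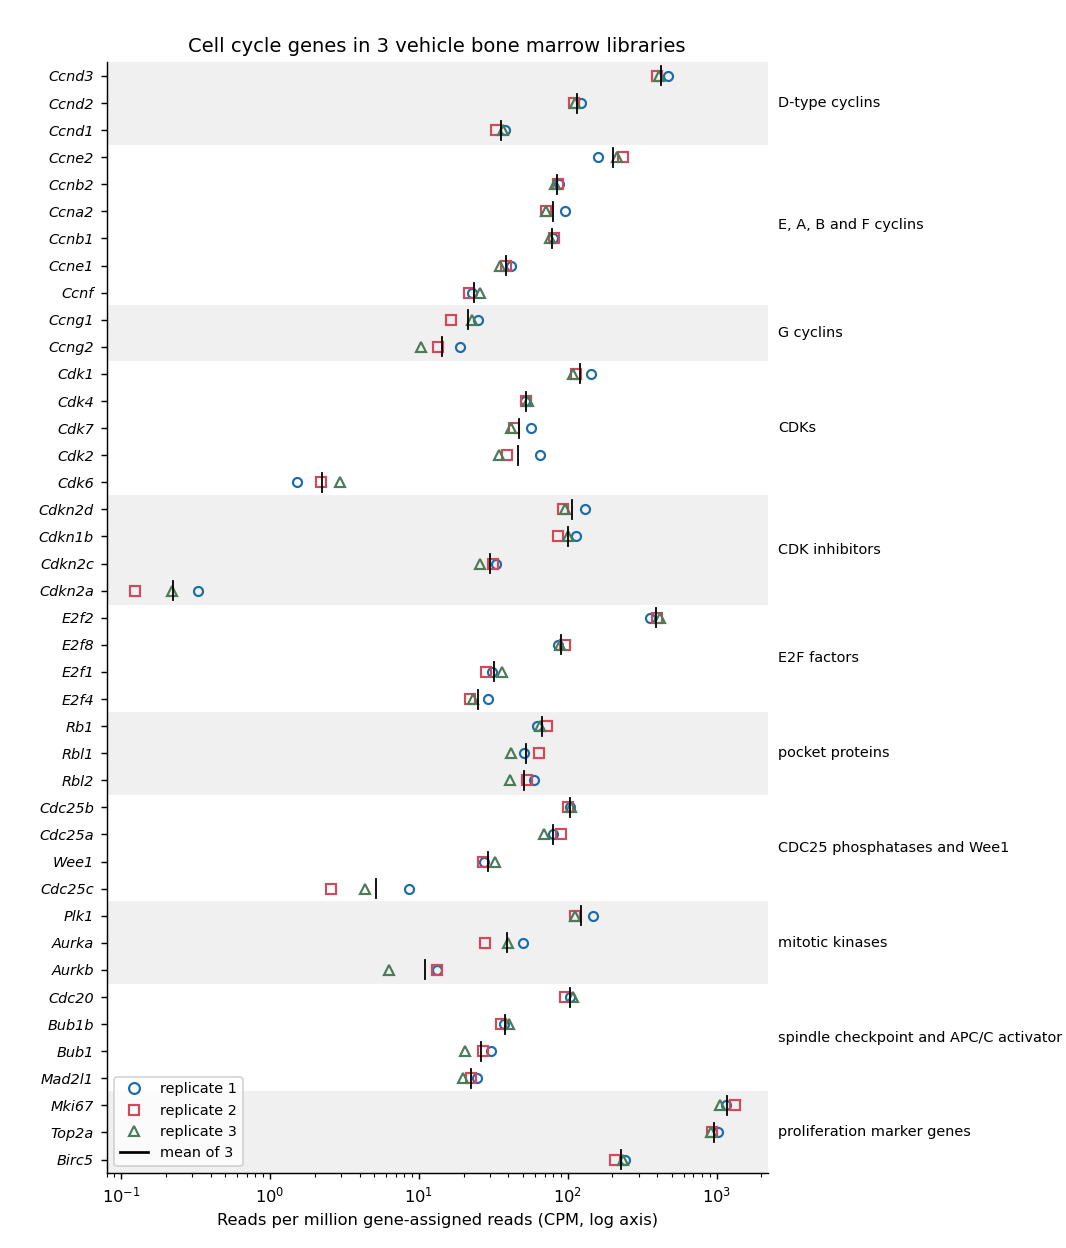
Levels of the 41 genes in reads per 1000000 gene-assigned reads (CPM, log axis), grouped by role; each symbol is 1 library and the black tick is the mean of 3. Mki67 and Top2a lie at the top at 1183 and 960 CPM. Cdk6 and Cdkn2a are the lowest at 2.23 and 0.223 CPM, and the range of Cdk6 overlaps that of Cdc25c.

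Small differences between libraries were common in these genes, as they were in the transcriptome as a whole. Of the 40 members with enough reads, 26 (65.0%) differed on library totals, where 56.5% of all tested genes did, and 27 (67.5%) differed with TMM, where 51.8% did. The 23 members called on both scales were Mki67, Ccnd3, E2f2, Birc5, Ccne2, Plk1, Cdk1, Cdkn2d, Cdkn1b, Ccna2, Cdc25a, Rb1, Rbl1, Rbl2, Cdk7, Cdk2, Aurka, E2f1, Bub1, Ccng1, Ccng2, Aurkb and Cdc25c. Top2a, Cdkn2c and E2f4 were called on totals only, and Cdc20, E2f8, Wee1 and Ccnf with TMM only. The median coefficient of variation (CV) of the tested members was 13.0% on totals and 11.5% with TMM, beside 17.1% and 16.2% over all tested genes. Counting noise raises the CV of genes with few reads, and the members had a higher median level than all entries with reads. These CVs were not adjusted for that, so they do not show the members to be steadier than other genes. Without replicate 1, 13 members were called on totals and 15 with TMM, and the share of all tested genes called was also lower, at 34.8% and 34.4%. Whichever library was left out, Mki67, Ccne2, Cdkn1b, Cdc25a, Rbl1 and Aurka stayed called on totals, and E2f2 and Ccne2 with TMM. With TMM, Mki67, Cdkn1b, Cdc25a, Rbl1 and Aurka were not called without replicate 2.

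On totals, 23 members were highest in replicate 1, 8 in replicate 2 and 9 in replicate 3, whereas 49.2%, 27.9% and 22.8% of all tested genes were highest in those libraries. With TMM the members divided into 15, 11 and 14, beside 32.6%, 33.7% and 33.7% of all genes. Replicate 1 thus led on totals in the members as in all genes, and less so in the members with TMM. Among the 23 members called on both scales, 13 were highest in replicate 1 on either scale, 6 in replicate 2 and 2 in replicate 3, and for Birc5 and Ccng1 the highest library changed with the scale.

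**Figure D2:**
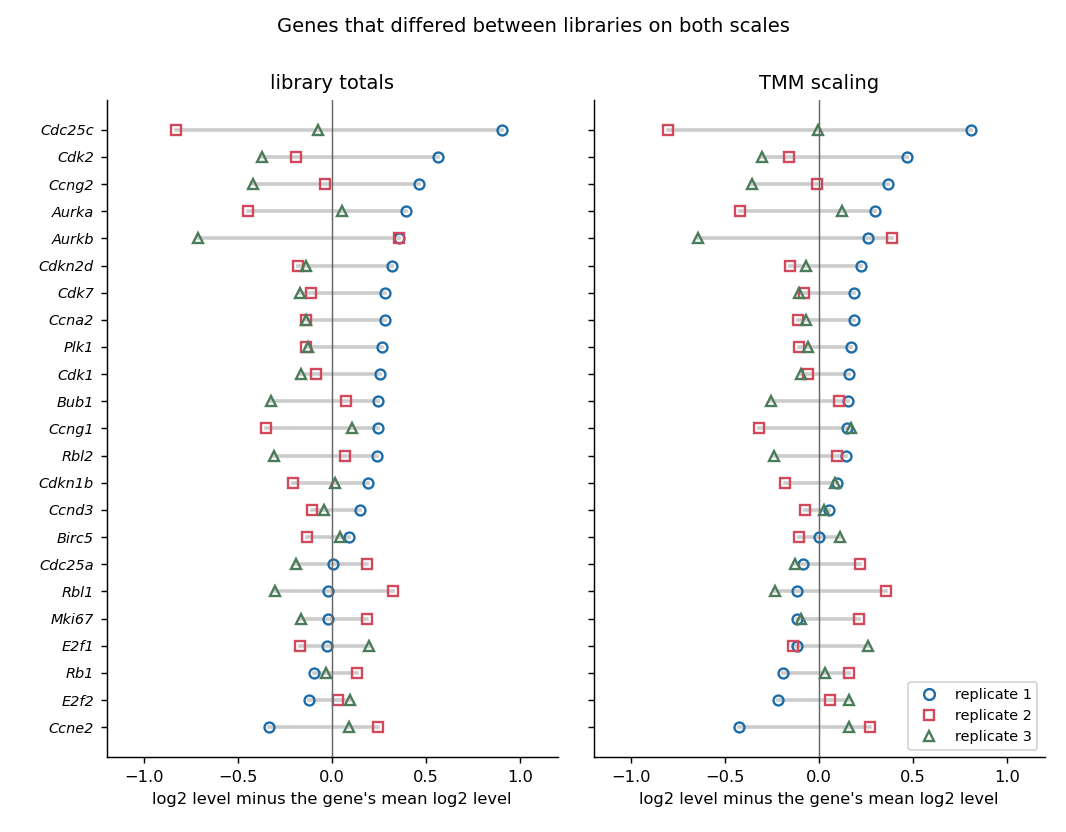
The 23 genes that differed between libraries on both scales, plotted as the log2 level in each library minus the gene's mean log2 level, on library totals (left) and with TMM scaling (right). Cdc25c, Cdk2 and Aurka show replicate 1 on the right of the line and Ccne2 shows it on the left, on either scale; the bar spans the 3 libraries.

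Among the D-type cyclins, which carry growth factor signals into the cycle, Ccnd3 was listed at the highest level, followed by Ccnd2 and Ccnd1. Its reads overlap those of Bysl, so its place in that order holds only as far as they are its own. Ccnd3 (chr17:47505051-47599691, GRCm38) stood at 471, 395 and 413 CPM in replicates 1, 2 and 3, a mean of 426 ± 39.9 CPM (SD, n = 3). Replicate 1 was the highest, and the libraries differed (adjusted exact binomial p = 2.68e-13 on totals and 0.0011 with TMM), though without replicate 1 the p on totals was 0.159. With TMM it was 0.0145 without replicate 1 and 0.5 without replicate 2, so the library that mattered changed with the scale. Ccnd2 had 122, 110 and 112 CPM, and Ccnd1 37.7, 33.2 and 36.8 CPM. Neither passed the test, at adjusted exact binomial p = 0.061 and 0.425 on totals. The ratio of Ccnd3 to Ccnd2 within a library, which no scaling can move, was 3.85, 3.58 and 3.68, a log2 ratio of 1.89 ± 0.05 (SD, n = 3), and that of Ccnd2 to Ccnd1 was 3.24, 3.32 and 3.05. As listed, the ranges of the 3 genes did not overlap.

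Reads of Ccnd3 could not be separated from those of Bysl, a gene of ribosome assembly. The genes lie on opposite strands and share 361 exon bases that hold the 3′ end of each (chr17:47599331-47599691). Bysl was listed at 4387, 3253 and 3814 reads and Ccnd3 at 4322, 3204 and 3770, so its count was 101.5%, 101.5% and 101.2% the size of that of Ccnd3. Whether the reads belong to Ccnd3, to Bysl or to both cannot be told from these files, which give no strand. If the reads were divided equally between the pair, the log2 ratio of Ccnd3 to Ccnd2 would be 0.89, with Ccnd3 still the higher.

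Cyclin genes of S phase and mitosis were led by Ccne2, encoding a cyclin E that opens S phase. Its level was 159, 237 and 213 CPM (203 ± 40.0, SD, n = 3). Replicate 1 lay well below the others on either scale, with adjusted exact binomial p = 3.61e-28 on totals and 1.84e-47 with TMM. Ccne2 was the only member called on both scales and in each of the 3 analyses that left out a library. Ints8, on the opposite strand, shares 609 exon bases with Ccne2 away from both 3′ ends, and its own count was 8.94% to 16.8% the size of that of Ccne2. The paralog Ccne1 had 41.6, 38.6 and 35.1 CPM with adjusted exact binomial p = 0.202, so the ratio of Ccne2 to Ccne1 was 3.82 in replicate 1 against 6.14 and 6.07 in the others.

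The mitotic cyclins had similar levels to each other. Ccnb2 and Ccnb1, which activate Cdk1 at mitosis, stood at 88.0, 85.6 and 82.4 CPM and at 80.1, 81.3 and 75.8 CPM. They passed the test on neither scale (adjusted exact binomial p = 0.819 and 0.663 on totals), and their ratio of 1.10, 1.05 and 1.09 was among the steadiest of the pairs compared. Ccna2, whose cyclin A serves S phase and mitosis, stood at 95.8, 71.6 and 71.7 CPM (79.7 ± 13.9, SD, n = 3). Replicate 1 was higher than the other libraries, which lay close together (adjusted exact binomial p = 3.1e-09 on totals and 2.39e-04 with TMM; 1 on totals without replicate 1). Exosc9 overlaps Ccna2 on the opposite strand and held 29.8% to 36.5% as many reads. Ccnf, the F-box cyclin of an SCF ubiquitin ligase, had 22.7, 21.6 and 25.8 CPM and passed with TMM only (adjusted exact binomial p = 0.278 on totals and 0.0421 with TMM).

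Genes of the G cyclins, atypical cyclins known as p53 and FOXO targets, were lower. Ccng1 had 25.0, 16.5 and 22.7 CPM, with replicate 2 the lowest (adjusted exact binomial p = 0.00149 on totals and 0.00527 with TMM; 0.445 on totals without replicate 2). Ccng2 had 19.0, 13.4 and 10.3 CPM, with replicate 1 the highest (adjusted exact binomial p = 7.25e-05 and 0.00274; 0.129 on totals without replicate 1). Their ratio was 1.32 and 1.23 in replicates 1 and 2 and 2.20 in replicate 3.

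Among the CDKs, the mitotic kinase gene Cdk1 had the highest level and Cdk6 the lowest. Cdk1 stood at 144, 114 and 108 CPM (122 ± 19.4, SD, n = 3), and Cdk2, the S phase kinase, at 65.7, 39.0 and 34.4 CPM (46.3 ± 16.9). Both were highest in replicate 1. For Cdk1 the adjusted exact binomial p was 1.67e-11 on totals and 8.04e-05 with TMM, and for Cdk2 it was 3.65e-22 and 2.58e-15. Without replicate 1 neither passed on totals, at 0.396 and 0.225. Cdk2 shares 34 exon bases with Pmel, away from both 3′ ends, and Pmel reads were 65.0%, 115% and 146% of the Cdk2 reads, so the Pmel level did not follow that of Cdk2. Cdk7, the kinase that activates other CDKs and also serves transcription, had 56.8, 43.3 and 41.5 CPM and was likewise highest in replicate 1 (adjusted exact binomial p = 6.93e-06 and 0.00639; 0.713 on totals without replicate 1).

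Both partners of the D-type cyclins were measured, at unequal levels. Cdk4 stood at 51.9, 52.3 and 54.1 CPM, with a CV of 2.17% on totals and 7.62% with TMM, and did not pass (adjusted exact binomial p = 1 on totals and 0.135 with TMM). Tspan31 overlaps its 3′ end on the opposite strand by 641 exon bases but held only 11.1% to 14.1% as many reads. Cdk6 had 14, 18 and 27 reads, or 1.53, 2.22 and 2.95 CPM, and did not pass (adjusted exact binomial p = 0.301 and 0.189). Cdk4 was 34.0, 23.6 and 18.3 times higher than Cdk6 in replicates 1, 2 and 3.

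CDK inhibitor genes were led by Cdkn2d and Cdkn1b. Cdkn2d, encoding the INK4 protein p19, which blocks Cdk4 and Cdk6, stood at 131, 92.9 and 95.7 CPM (107 ± 21.4, SD, n = 3). Cdkn1b, encoding p27, which restrains Cdk2 complexes, stood at 114, 86.5 and 101 CPM (101 ± 13.8). Replicate 1 was the highest for both. Their adjusted exact binomial p was 7.07e-16 and 9.45e-06 on totals and 5.89e-08 and 2.37e-04 with TMM, and without replicate 1 the p of Cdkn2d on totals was 0.704. Cdkn2c, encoding the INK4 protein p18, had 33.3, 31.5 and 25.6 CPM and passed on totals only (adjusted exact binomial p = 0.0145, and 0.172 with TMM; on totals 0.064 without replicate 1 and 0.655 without replicate 3). Cdkn2d was 3.95, 2.95 and 3.74 times as high as Cdkn2c.

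Cdkn2a, the gene of p16 and of the p53 activator ARF, was near the limit of detection. It had 3, 1 and 2 reads, or 0.327, 0.123 and 0.219 CPM, with exact 95% Poisson intervals of 0.0675 to 0.956, 0.00312 to 0.687 and 0.0265 to 0.791 CPM that cover counting error only. These intervals overlap, and at this depth no difference between libraries was detectable. The gene had too few reads to be tested.

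E2F genes and pocket protein genes included the highest gene of S phase entry, E2f2. E2f2, encoding an activating E2F with a known role in red cell precursors, stood at 357, 396 and 414 CPM (389 ± 29.4, SD, n = 3). Replicate 1 was the lowest on either scale (adjusted exact binomial p = 3.07e-08 on totals and 2.64e-25 with TMM), and without replicate 1 the p on totals was 0.142. E2f8, encoding a repressing E2F, had 86.3, 95.3 and 89.2 CPM and passed with TMM only, at adjusted exact binomial p = 0.252 on totals and 0.00166 with TMM.

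E2f1, the founding activator of the family, had 31.1, 28.1 and 36.2 CPM, with replicate 3 the highest (adjusted exact binomial p = 0.0306 and 0.0015; on totals 0.12 without replicate 2 and 0.401 without replicate 3). E2f4, which works with pocket proteins in resting cells, had 29.3, 22.0 and 23.1 CPM, and passed on totals only (adjusted exact binomial p = 0.0076 and 0.179; 0.767 on totals without replicate 1). E2f2 exceeded E2f1 by 11.5, 14.1 and 11.4 times within the libraries.

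The pocket protein genes had mean levels of 66.8, 52.3 and 51.2 CPM for Rb1, Rbl1 and Rbl2. Rb1, the retinoblastoma gene, had 62.4, 73.0 and 65.1 CPM, with replicate 2 the highest (adjusted exact binomial p = 0.0422 and 0.00108; on totals 0.112 without replicate 1 and 0.613 without replicate 2). Rbl1, encoding p107, had 50.7, 64.5 and 41.7 CPM, and Rbl2, encoding p130, had 59.7, 53.1 and 40.8 CPM. Replicate 2 was the highest for Rbl1 and replicate 1 for Rbl2, while replicate 3 was low for both. Their adjusted exact binomial p was 1.01e-07 and 1.16e-06 on totals and 5.64e-09 and 3.57e-04 with TMM, and without replicate 3 the p of Rbl2 on totals was 0.146. The ratio of Rbl1 to Rbl2 was 0.850, 1.22 and 1.02, so neither was the higher in each library. Rb1 and Rbl2 share exon bases at their own 3′ ends with Rcbtb2 and Aktip, which held 17.4% to 21.7% and 64.0% to 68.9% as many reads, and part of their reads may belong to those neighbours.

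CDC25 phosphatases remove the inhibitory phosphates that Wee1 kinase places on CDKs. Cdc25b stood at 104, 101 and 105 CPM, with a CV of 2.07% on totals and 6.36% with TMM, and did not pass (adjusted exact binomial p = 1 on totals and 0.0703 with TMM). Cdc25a, which acts at the entry to S phase, had 79.2, 89.7 and 68.8 CPM. It was highest in replicate 2 and differed on both scales (adjusted exact binomial p = 2.7e-04 and 3.32e-05). Wee1 had 27.6, 27.1 and 32.4 CPM and passed with TMM only, at adjusted exact binomial p = 0.117 on totals and 0.00991 with TMM.

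Cdc25c, the phosphatase of mitotic entry, varied the most of the tested members. It had 79, 21 and 40 reads, or 8.62, 2.59 and 4.38 CPM (5.20 ± 3.09, SD, n = 3). Replicate 1 was 3.33-fold above replicate 2, and the libraries differed with adjusted exact binomial p = 3.43e-06 on totals and 6.96e-05 with TMM. Without replicate 1 the p on totals was 0.123, so the difference of replicate 3 from replicate 2 was not detectable at this depth. The ratio of Cdc25a to Cdc25c accordingly ran from 9.19 in replicate 1 to 34.6 in replicate 2, the widest of the 16 pairs compared.

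Mitotic kinase genes all differed between libraries, in unlike patterns. Plk1, encoding the Polo-like kinase of spindle assembly, stood at 147, 111 and 112 CPM (124 ± 20.5, SD, n = 3), with replicate 1 alone high (adjusted exact binomial p = 8.9e-13 and 1.64e-05; 0.953 on totals without replicate 1). Aurka, the centrosome and spindle pole kinase, had 50.2, 28.0 and 39.6 CPM, with replicate 1 the highest and replicate 2 the lowest (adjusted exact binomial p = 2.77e-09 and 4.73e-08). Aurkb, the kinase of the chromosomal passenger complex, had 13.3, 13.3 and 6.35 CPM, with replicate 3 low (adjusted exact binomial p = 2.3e-06 and 3.24e-05; 1 on totals without replicate 3). The ratio of Aurka to Aurkb was 3.77, 2.10 and 6.24, so Aurka was the higher in each library by a varying margin.

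Of the 4 genes of the spindle checkpoint and its target, Bub1 differed on both scales and Cdc20 with TMM only. Cdc20, encoding the activator of the anaphase-promoting complex that the checkpoint blocks, stood at 104, 96.1 and 109 CPM (103 ± 6.65, SD, n = 3), with adjusted exact binomial p = 0.0716 on totals and 7.96e-04 with TMM. It passed on totals when replicate 1 was left out (0.0248). Elovl1 shares 53 exon bases with Cdc20 at both 3′ ends on the opposite strand and held 1172, 912 and 1149 reads against 953, 779 and 999 for Cdc20, so their reads may be mixed. The checkpoint kinase gene Bub1 had 30.5, 27.1 and 20.6 CPM, with replicate 3 low (adjusted exact binomial p = 5.44e-04 and 0.0118; 0.312 on totals without replicate 3). Its relative Bub1b, encoding BubR1, had 37.3, 35.7 and 40.4 CPM and did not pass (adjusted exact binomial p = 0.466 and 0.0502). Mad2l1, encoding the Mad2 protein that captures Cdc20, had 24.6, 22.6 and 19.7 CPM and did not pass either (adjusted exact binomial p = 0.179 and 0.77).

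Mki67 and Top2a, in common use as marks of dividing cells, were the most abundant members, and Birc5 ranked 5 among the 41. Mki67, whose Ki-67 protein coats mitotic chromosomes, stood at 1159, 1340 and 1051 CPM (1183 ± 146, SD, n = 3). Top2a, the topoisomerase that untangles sister chromatids, stood at 1024, 933 and 924 CPM (960 ± 55.4). Birc5, encoding the passenger protein survivin, stood at 242, 207 and 234 CPM (227 ± 18.3). Their highest libraries on totals were not the same: Mki67 was highest in replicate 2, and Top2a and Birc5 in replicate 1. Adjusted exact binomial p was 3.31e-55 for Mki67, 2.96e-12 for Top2a and 1.85e-05 for Birc5 on totals, and 5.38e-74, 1 and 6.58e-04 with TMM. With TMM, Top2a ranged over 1.02-fold and Birc5 was highest in replicate 3. Without replicate 1 Top2a no longer passed on totals (0.681), and without replicate 2 Birc5 did not (0.395). The ratio of Mki67 to Top2a was 1.13, 1.44 and 1.14, with replicate 2 standing apart.

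**Figure D3:**
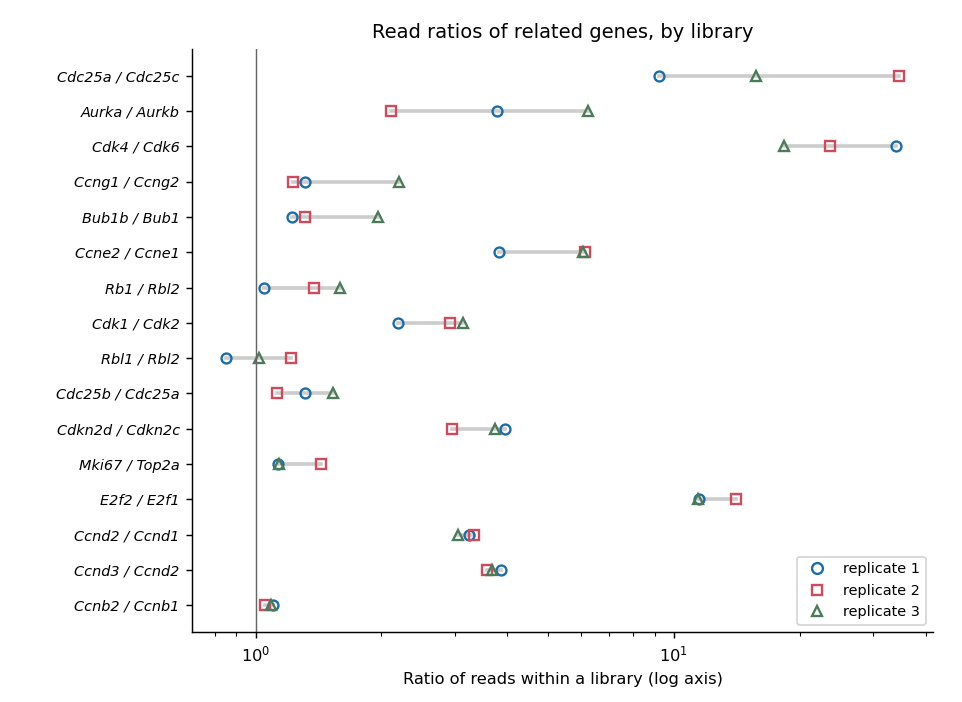
Ratio of reads between related genes within each library (log axis), a quantity that library scaling cannot change; the bar spans the 3 libraries and the vertical line marks equal levels. Ccnb2 to Ccnb1, at 1.05 to 1.10, hardly moved, and Cdc25a to Cdc25c, at 9.19 to 34.6, moved the most.

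By phase, the 17 mitotic members held 0.337%, 0.329% and 0.303% of reads in replicates 1, 2 and 3, a mean of 0.323% ± 0.0180 (SD, n = 3). The 8 members of S phase entry, which are Ccne1, Ccne2, Cdk2, E2f1, E2f2, E2f8, Cdc25a and Rbl1, held 0.0870%, 0.0989% and 0.0933% (0.0931% ± 0.00592). The remaining 16, of G1 and other steps, held 0.124%, 0.105% and 0.108% (0.112% ± 0.0104). Mitotic genes thus made up most of the reads, with Mki67 alone giving 36.4% of theirs, and E2f2 gave 41.9% and Ccnd3 37.9% of the other sums. On totals, 10 of 17 mitotic, 6 of 8 S phase entry and 10 of 15 tested G1 and other members differed between libraries, where 56.5% of all tested genes did. With TMM the counts were 11, 7 and 9, where 51.8% of all genes did. These are small counts around those shares, and no group was set apart by them. The S phase entry sum was lowest in replicate 1 on both scales. The G1 sum was highest there on both, and the highest mitotic sum passed from replicate 1 on totals to replicate 2 with TMM.

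Cell type markers also differed between these libraries. In bulk marrow, fewer cells of a type and less RNA per cell cannot be told apart. The 10 erythroblast markers, Klf1 and Alas2 among them, held 0.183%, 0.226% and 0.205% of reads. The sum was lowest in replicate 1, as were 5 of the 10 markers on totals and 8 with TMM, and 9 of 10 differed on totals, where 56.5% of all genes did. E2f2 and Ccne2 were also lowest in that library, as was the S phase entry sum, which includes both and took 41.9% of its reads from E2f2. Of the 8 S phase entry members, 3 were lowest in replicate 1 on totals, 1 in replicate 2 and 4 in replicate 3. With TMM the counts were the same, and Cdk2 was highest in replicate 1 on both scales. The 10 early B cell markers held 0.0706%, 0.0644% and 0.0501%, lowest in replicate 3, as were 7 of the 10 on totals, and 9 of 10 differed. The 8 neutrophil progenitor markers held 0.222%, 0.158% and 0.199%, lowest in replicate 2, as were 6 of the 8 on totals, and 7 of 8 differed. Of the 23 members called on both scales, 3 were lowest in replicate 1 on either scale, 10 in replicate 2 and 9 in replicate 3. The shares of all tested genes lowest in each library were not counted, so these counts of lowest libraries have no background beside them. On totals the median gene of replicate 1 also stood above the other libraries.

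Markers of mature neutrophils, which do not divide, held 7.46%, 5.81% and 7.74% of reads (8 of 8 differed). Stem and progenitor markers held 0.0368%, 0.0351% and 0.0282% (3 of 7 tested differed). Stroma and endothelium markers held 0.0312%, 0.0268% and 0.0216% (5 of 7 differed). Skeletal muscle markers held 0.00121% to 0.00147% (0 of 3 tested differed). These counts are on totals, where 56.5% of all tested genes differed. With TMM they were 8, 4, 6 and 0 in the same order, where 51.8% of all genes did. Each marker had reads in at least 1 library, and Ckm of muscle had 0 reads in replicate 1. The defining genes of marrow lineages were present, with Mpo at 706 to 1004 CPM and Alas2 at 341 to 477 CPM. The part of these markers in the differences between cell cycle genes was not tested.

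**Figure D4:**
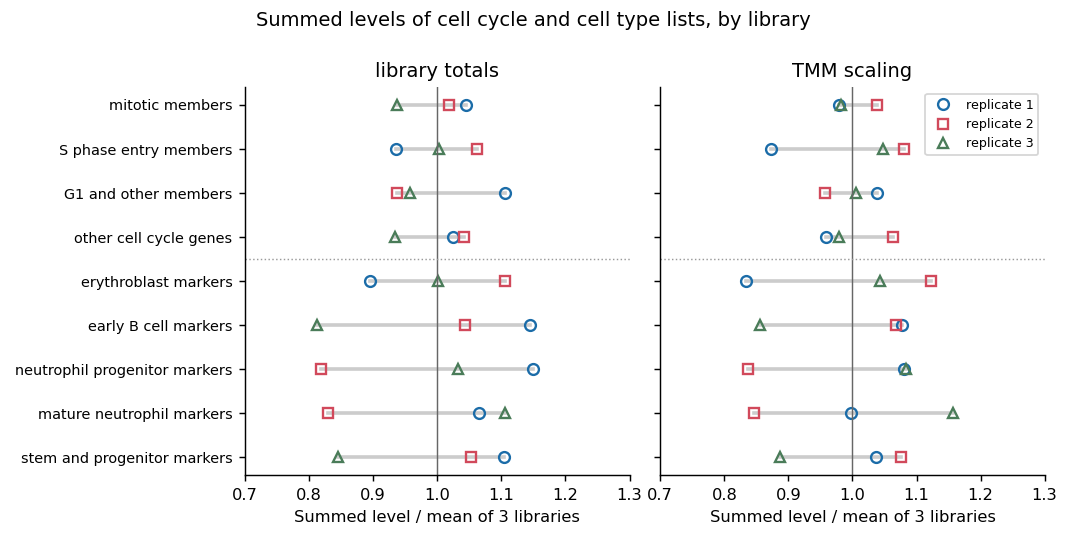
Summed level of the cell cycle groups (above the dotted line) and of cell type marker lists (below it), each divided by its own mean over 3 libraries, on library totals (left) and with TMM scaling (right). Replicate 1 is the lowest library for S phase entry members and for erythroblast markers in both panels; the bar spans the libraries.

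Promoters of the members differed by phase in how often they held certain sequence motifs, a property the measured levels did not enter. Mitotic genes are known for promoters with a CHR element (TTTGAA) near CCAAT boxes, and genes of S phase entry for E2F sites. Windows of 300 bases, from 250 before to 50 after the start, came from RefSeq (GRCm38.p6) for 32 members, and 9 members had none. More than 1 window was held by 4 members, and a match in any of them counted for the gene. Bases after the start read as the gene's transcript strand in 30 of 36 windows. The E2f1 window, which held no match, lies inside the annotated gene. So does a further E2f2 window, which holds the only CHR match of E2f2. In the G1 and other group, the windows of Ccng2, Cdk6 and Cdkn2c and a further window of Ccnd3 and of Cdkn2a also lie inside the gene. Ccng2, Cdk6 and Cdkn2c have no window outside it, and the motif shares of that group include these windows. The following promoters are printed because they show both kinds: Ccnb2 (chr9:70421505-70421804, minus strand), Cdk1 (chr10:69352863-69353162, minus), Plk1 (chr7:122159185-122159484, plus) and Aurka (chr2:172370521-172370820, minus) of the mitotic group, and Cdc25a (chr9:109875329-109875628, plus) and Rbl1 (chr2:157204485-157204784, minus) of S phase entry. Each reads 5′ to 3′ on the strand of the gene, and capitals mark matches to CHR, CCAAT or E2F motifs on either strand.
Ccnb2: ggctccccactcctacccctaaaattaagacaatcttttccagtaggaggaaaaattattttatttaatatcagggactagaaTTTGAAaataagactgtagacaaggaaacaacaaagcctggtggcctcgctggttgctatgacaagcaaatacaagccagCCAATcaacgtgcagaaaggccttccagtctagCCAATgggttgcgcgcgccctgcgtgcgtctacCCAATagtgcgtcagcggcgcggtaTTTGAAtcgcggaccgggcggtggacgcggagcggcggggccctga
Cdk1: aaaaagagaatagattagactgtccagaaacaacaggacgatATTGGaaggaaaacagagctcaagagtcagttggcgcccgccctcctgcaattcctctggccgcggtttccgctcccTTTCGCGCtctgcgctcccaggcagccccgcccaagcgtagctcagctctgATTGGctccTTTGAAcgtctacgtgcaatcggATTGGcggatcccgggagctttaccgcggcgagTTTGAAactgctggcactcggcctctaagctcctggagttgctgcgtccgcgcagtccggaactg
Plk1: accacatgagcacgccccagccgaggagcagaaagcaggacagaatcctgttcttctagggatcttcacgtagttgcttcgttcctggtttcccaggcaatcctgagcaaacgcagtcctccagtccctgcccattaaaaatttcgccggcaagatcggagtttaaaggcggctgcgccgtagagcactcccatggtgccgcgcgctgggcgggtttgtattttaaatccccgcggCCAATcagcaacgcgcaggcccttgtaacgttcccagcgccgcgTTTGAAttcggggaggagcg
Aurka: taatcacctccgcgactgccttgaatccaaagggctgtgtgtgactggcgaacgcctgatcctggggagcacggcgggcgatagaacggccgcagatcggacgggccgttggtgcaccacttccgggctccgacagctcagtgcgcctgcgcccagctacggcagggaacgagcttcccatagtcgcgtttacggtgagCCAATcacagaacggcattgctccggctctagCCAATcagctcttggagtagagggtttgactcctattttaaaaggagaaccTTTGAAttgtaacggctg
Cdc25a: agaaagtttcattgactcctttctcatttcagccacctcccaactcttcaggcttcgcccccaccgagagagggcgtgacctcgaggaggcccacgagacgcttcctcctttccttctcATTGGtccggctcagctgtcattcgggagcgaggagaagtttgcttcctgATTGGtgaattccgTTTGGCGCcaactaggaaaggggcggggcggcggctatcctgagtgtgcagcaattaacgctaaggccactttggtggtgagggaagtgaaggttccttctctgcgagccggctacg
Rbl1: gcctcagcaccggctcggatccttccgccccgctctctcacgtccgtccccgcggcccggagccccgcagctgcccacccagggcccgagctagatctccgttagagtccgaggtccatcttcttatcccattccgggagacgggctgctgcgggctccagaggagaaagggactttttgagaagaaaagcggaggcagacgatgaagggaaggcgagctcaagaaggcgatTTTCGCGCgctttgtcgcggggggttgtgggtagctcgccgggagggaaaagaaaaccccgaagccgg

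In Ccnb2, 3 CCAAT boxes begin 87, 54 and 21 bases before the start, each 33 bases from the next, and a CHR match lies just after the start. Cdk1 has CCAAT boxes 80 and 48 bases before the start, 32 apart, CHR matches 71 and 15 bases before it, and an E2F match 131 bases before it. Aurka has CCAAT boxes 51 and 19 bases before the start, also 32 apart. Plk1 has 1 CCAAT box and 1 CHR match. In Cdc25a an E2F match begins 67 bases before the start and in Rbl1 18 bases before it, and neither window holds a CHR match.

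Counted over genes, CHR matches were in 9 of 14 mitotic members (64.3%), 2 of 7 of S phase entry (28.6%) and 1 of 11 of the rest (9.09%), beside 20.2% of the 27025 genes with a window. CCAAT was in 12 of 14 (85.7%), 4 of 7 (57.1%) and 6 of 11 (54.5%), beside 41.1% of all genes. The E2F motif, searched as TTT, then C or G at each of 2 bases, then CGC, was in 1 of 14 mitotic members (7.14%), 4 of 7 of S phase entry (57.1%) and 1 of 11 of the rest, beside 2.6% of all genes. CHR and CCAAT stood together in 9 of 14 mitotic windows, as against 7.97% of all genes. Among 94 further cell cycle genes with a window, which are no members, CHR was in 33.0%, CCAAT in 54.3% and E2F in 11.7%. CHR and CCAAT stood together in 25.5% of them, so these shares were also above those of all genes. Both strands were searched, and no sites of different motifs overlapped in the members. The printed promoters were picked for their matches, and others differed. Birc5 and Mad2l1 of the mitotic group and Ccne1 and E2f1 of S phase entry had no match. E2f8 of S phase entry had CHR and CCAAT matches and no E2F match. Of the mitotic genes whose promoters are printed, Ccnb2 passed the test between libraries on neither scale, and Cdk1, Plk1 and Aurka passed on both. A relation of the motifs to differences between libraries was not tested. A match is a description of the letters in the window and no measure of binding.

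**Figure D5:**
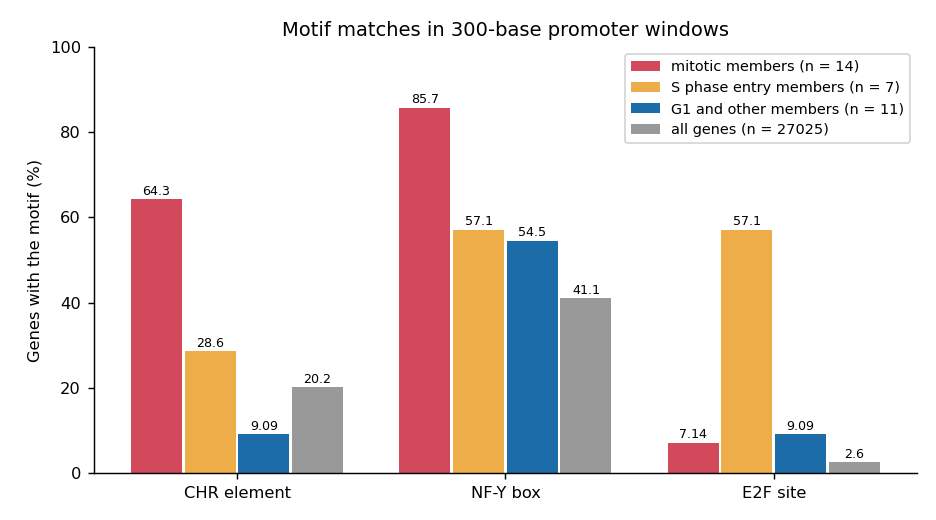
Share of genes (percent) whose 300-base promoter window holds each motif, for mitotic members (n = 14), S phase entry members (n = 7), G1 and other members (n = 11) and all genes with a window (n = 27025). CHR stands highest in mitotic members at 64.3% and the E2F site in S phase entry members at 57.1%; the NF-Y box is the CCAAT motif.

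The rest of the cell cycle machinery was followed with 115 further genes. Of the 111 tested, 74 differed on totals and 67 with TMM, 58 of them on both, against 56.5% and 51.8% of all genes. On totals 48 differed without replicate 1, 55 without replicate 2 and 37 without replicate 3, where 34.8%, 39.0% and 38.5% of all genes did. Genes of chromosome structure had the highest levels: the condensin gene Smc4 stood at 1072, 1284 and 1031 CPM, Smc2 of the same complex at 519, 613 and 502 CPM, and the cohesin gene Smc1a at 670, 672 and 628 CPM. The antiproliferative gene Btg1 had 541, 532 and 508 CPM, and Cenpf, a kinetochore and G2 gene, had 409, 431 and 337 CPM. Smc4 and Smc2 were highest in replicate 2, the library in which Mki67 was also the highest.

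By group, 18 of 25 further CDKs, cyclins and inhibitors differed on totals, as did 8 of 13 E2F and DREAM genes, 16 of 24 genes of the anaphase-promoting complex and SCF ligases, 16 of 28 of the kinetochore and spindle, 9 of 11 of cohesin and condensin and 7 of 10 of the entry checkpoints, where 56.5% of all genes did. With TMM the counts in the same order were 17, 7, 13, 15, 8 and 7, where 51.8% of all genes did. The called genes with the largest CV were all of low level. They were Cdk14 at 2.18, 0.987 and 3.39 CPM, Cdkn1c, encoding p57, at 2.62, 3.70 and 1.31 CPM, Mybl1 at 3.71, 8.51 and 5.80 CPM, the centrosome kinase gene Nek2 at 9.05, 5.18 and 4.49 CPM, and Anapc10 at 2.84, 5.92 and 3.61 CPM. Replicate 1 was thus the highest for Nek2, replicate 2 for Cdkn1c, Mybl1 and Anapc10, and replicate 3 for Cdk14. With TMM, Cdkn1c did not pass (adjusted exact binomial p = 0.0566).

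Of the members, 10 share exon bases with another entry, 5 of them at their own 3′ end, and the strand used in counting is not stated. The libraries are of 1 group, so no value speaks to treatment.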

How the data were processed

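Bone marrow RNA of 3 vehicle samples was analysed, at 8104828 to 9168435 gene-assigned reads per library. Per the labels' protocols, 500 ng of total RNA entered the Lexogen QuantSeq kit. The submitters' processing notes list Bowtie2, bedtools and mm10, and the sources used here give no settings, annotation or strand. A log2 value per gene and library is what the authors deposited, and from the values themselves it is log2(x + 1), where x counts reads per 1000000 of a library size that the authors scaled. The design had assumed read counts; whole reads were recovered from 100% of the log2 values within a tolerance of 1e-06 and used instead.

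From the recovered reads, CPM on library totals was the main scale, and TMM factors that trim 30% of ratios and 5% of intensities, median-of-ratios factors and the authors' denominators were alternatives, computed in Python 3.11.15 with numpy 2.4.6, scipy 1.17.1 and pandas 2.3.3. For each gene with at least 30 reads, an exact two-sided binomial test set each library against the others. The smallest p was multiplied by 3 and adjusted by Benjamini-Hochberg over 11833 genes, with a threshold of 0.05. Intervals cover counting error only. The test was tested on simulated counts. Gene positions and overlaps are from GENCODE M21, and promoters from RefSeq.

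Per-library values were printed for the 3 highest members of each role, each member called as differing, and members of at most 10 reads; of the other cell cycle genes, for the 5 of highest level and the 5 called with the largest CV. Values of further members, Smc3 and Rad21 were added after the data were seen. The members and lists were chosen with earlier results of these data known.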

Additional observations from a re-analysis of the deposited data

How the results depend on the processing

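The number of members that differed between libraries was 25 to 27 under TMM, median-of-ratios, the authors' denominators, a total without Rn45s and globins, read minimums of 10, 100 and 1, and a chi-square test, beside 26 as reported. Leaving out 1 library on totals gave 13 to 22 members and 37 to 55 other cell cycle genes, where 74 were reported. With TMM, an alternative chosen after seeing the data, it gave 15, 22 and 18 members and 46, 44 and 42 other genes without replicates 1, 2 and 3. Fewer libraries and reads entered those tests, and 34.8% of all genes were called without replicate 1. Without Rn45s and globins in the total, the mean sums were 0.480% for mitotic, 0.167% for G1 and other and 0.139% for S phase entry members. Without their most abundant member they were 0.205%, 0.0698% and 0.0541%. The log2 ratio of Ccnd3 to Ccnd2 was 0.89 with equal division of the Ccnd3 reads. The rank correlation of member levels with the reported order, also added after seeing the data, was 0.996 to 1. No paired analysis was possible because only 1 group is held. Depth limits Cdkn2a, Cdk6 and Cdc25c most.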

Other observations

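Several abundant genes that act on mitotic chromosomes, picked after the data were seen, shared their highest library on totals. Others were highest in replicate 1, among them Top2a, Birc5, Nusap1, Ncapd2, Stag2, Incenp and Prc1. Smc3 of cohesin stood at 373, 412 and 349 CPM in replicates 1, 2 and 3, highest in replicate 2 as Mki67, Smc4, Smc2 and Cenpf were. On totals 6 of 11 cohesin and condensin genes were highest in that library and 5 in replicate 1, where 27.9% and 49.2% of all tested genes were. Among those highest in replicate 2, Smc1a was nearly equal in replicates 1 and 2, at 670 and 672 CPM. Rad21 did not pass on totals (adjusted exact binomial p = 0.412). With TMM 9 of 11 were highest in replicate 2, where 33.7% of all tested genes were. Of 28 kinetochore, spindle and checkpoint genes, 15 were highest in replicate 1 and 10 in replicate 2 on totals. With TMM those counts were 9 and 13. The cause was not tested.

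QuantSeq can also start at runs of A bases inside a transcript. Of the longest coding transcripts of the members in GENCODE, with a median length of 3089 bases, 12 of 41 held a run of at least 8 A bases before the last 200 bases. Mki67 held 1, Top2a 0 and Ccnd2 the most, 6. The median level was 66.0 CPM for members with such a run and 47.2 CPM for those without. Over the 41 members, transcript length and mean CPM had a Spearman rho of 0.18, given as a description across genes, which are not independent replicates.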
